A study of Mus musculus with 6 samples.

Results

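The interferon-inducible GTPases described here are 10 mouse genes of 2 families, picked by symbol from the 32285 genes counted in every library. The guanylate-binding proteins are Gbp2, Gbp3, Gbp4, Gbp5 and Gbp7, and the immunity-related GTPases are Igtp, Irgm1, Irgm2, Iigp1 and Tgtp1. All 10 symbols matched exactly 1 gene. They were measured in single-cell RNA libraries (10x Genomics Single Cell 3' v3) of pancreatic tumours from KPC mice, whose genotype is KrasLSL.G12D/+, P53LSL.R172H/+ and Pdx1-Cre in every group. Pdx1-Cre recombines in the pancreatic epithelial lineage, so the mutant alleles are switched on in the tumour epithelium and not by design in stromal or immune cells. The 3 IPI-926 tumours came from mice given IPI-926, which blocks Smoothened and with it Hedgehog signalling, at 40 mg/kg daily by oral gavage for 2 days, and the 3 vehicle tumours from mice given the carrier hydroxypropyl-beta-cyclodextrin for 2 days. All were collected 2 hours after the last dose, trimmed of healthy pancreas and dissociated enzymatically. The labels give no age, sex, sorting step or pairing, and nothing beyond a separate code per library says that the tumours came from separate mice, so p-values measure the spread between these libraries. The study asked which cell types change when Smoothened is inhibited in vivo, and the comparison here is IPI-926 against vehicle within each cell type.

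Interferon gamma, released mainly by T cells and natural killer cells, binds a receptor made of Ifngr1 and Ifngr2, signals through the kinases Jak1 and Jak2 and induces genes that carry GAS elements. Type I interferons act through the receptor chains Ifnar1 and Ifnar2 on genes that carry ISRE elements, which IRF proteins such as Irf1 also bind. The GTPases are among the most inducible targets of these routes, and their protein products gather on vacuoles and membranes that hold intracellular microbes and take part in their destruction and in inflammasome activation. Among the immunity-related GTPases, Iigp1 and Tgtp1 are effectors that load onto the vacuole membrane, while Irgm1, Irgm2 and Igtp sit on the cell's own membranes and keep the effectors inactive there.

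On GRCm38 (GENCODE vM21) 4 of the guanylate-binding protein genes lie in 1 cluster on the plus strand of chromosome 3, with Gbp5 at chr3:142493978-142522344, Gbp7 at chr3:142530342-142550149, Gbp3 at chr3:142560026-142573209 and Gbp2 at chr3:142620602-142638008. Gbp4 lies on the minus strand of chromosome 5 at chr5:105115767-105139586, and its span overlaps those of Gbp8 and Gbp9. Irgm1 (chr11:48861968-48871683) and Tgtp1 (chr11:48985327-48994172) lie on the minus strand of chromosome 11. Igtp (chr11:58199556-58207591) and Irgm2 (chr11:58199618-58222782) lie further along on its plus strand, with overlapping spans. The libraries read transcript 3' ends, so the last 500 bases of each gene's transcripts were searched for windows of 90 bases that also occur in another gene. Of the Tgtp1 windows 74.0% occurred in Tgtp2 or Gm12185, so Tgtp1 counts are uncertain. For Gbp4 the share was 6.08%, for Gbp3 it was 0.375%, and for the other members it was 0%.

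Promoter windows, from 250 bases before to 50 bases after a gene's start, were available for 8 members in 9 windows (RefSeq, GRCm38.p6). The 5 printed here, 5' to 3' along the gene, show the interferon elements that members of both families share, with capitals marking each match on either strand to the GAS pattern TTCNNNGAA or to the ISRE core, which is TTTC, any 2 bases and TTTC.
Gbp2 (chr3:142620413-142620712, plus strand): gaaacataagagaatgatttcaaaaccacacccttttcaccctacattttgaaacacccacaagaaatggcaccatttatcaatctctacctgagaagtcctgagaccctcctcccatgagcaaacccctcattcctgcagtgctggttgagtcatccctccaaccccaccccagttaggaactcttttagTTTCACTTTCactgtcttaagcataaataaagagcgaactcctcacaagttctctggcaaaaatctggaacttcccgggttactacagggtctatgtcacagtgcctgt
Gbp7 (chr3:142530086-142530385, plus strand): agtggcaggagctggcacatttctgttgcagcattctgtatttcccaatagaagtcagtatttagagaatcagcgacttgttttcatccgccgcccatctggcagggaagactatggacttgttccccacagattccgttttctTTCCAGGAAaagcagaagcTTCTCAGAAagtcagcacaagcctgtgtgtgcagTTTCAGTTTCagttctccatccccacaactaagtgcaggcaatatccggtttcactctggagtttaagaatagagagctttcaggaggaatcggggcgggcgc
Igtp (chr11:58199306-58199605, plus strand): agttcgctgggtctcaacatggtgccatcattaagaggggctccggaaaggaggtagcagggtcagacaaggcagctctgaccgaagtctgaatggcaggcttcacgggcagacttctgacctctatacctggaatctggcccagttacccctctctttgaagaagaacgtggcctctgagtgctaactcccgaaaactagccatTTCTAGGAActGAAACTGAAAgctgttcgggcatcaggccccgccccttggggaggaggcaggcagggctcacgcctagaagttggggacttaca
Irgm2 (chr11:58214727-58215026, plus strand): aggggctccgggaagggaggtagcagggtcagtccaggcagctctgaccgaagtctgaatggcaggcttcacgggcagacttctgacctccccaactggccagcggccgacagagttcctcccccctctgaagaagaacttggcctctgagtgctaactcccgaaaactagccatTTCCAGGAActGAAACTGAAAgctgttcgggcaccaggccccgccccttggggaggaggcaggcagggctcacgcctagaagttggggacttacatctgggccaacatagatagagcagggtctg
Tgtp1 (chr11:48992197-48992496, minus strand): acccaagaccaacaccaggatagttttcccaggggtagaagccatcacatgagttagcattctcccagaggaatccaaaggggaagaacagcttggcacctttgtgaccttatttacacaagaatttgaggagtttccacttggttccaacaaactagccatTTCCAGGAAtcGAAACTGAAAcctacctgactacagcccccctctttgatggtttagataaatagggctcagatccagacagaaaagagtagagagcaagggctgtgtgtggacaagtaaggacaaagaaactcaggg
The ISRE core was found in all 8 of the members with a window and in 3.99% of the 27025 genes with a window. The GAS pattern was found in 5 of the 8 (Gbp5, Gbp7, Igtp, Irgm2 and Tgtp1), against 9.55% of all genes, and all of these 5 held both in 1 window, against 0.54% of all genes. In Igtp, Irgm2 and Tgtp1 the ISRE match begins 2 bases after the end of the GAS match, with the first GAS base at position -45, -75 and -88 from the start and the first ISRE base at -34, -64 and -77. Gbp2 has its ISRE match at -59, Gbp7 at -53, Gbp5 at -165, Gbp3 has 2 that overlap at -45 and -39, and Irgm1 has 2 that overlap at -30 and -24. These matches describe the letters in the windows and are not measured binding sites.

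The 6 libraries held 62905 cell barcodes and 718531446 UMIs, from 100810942 to 174929328 UMIs per library, and 49797 cells were kept, from 6184 to 14156 per library. Pairs of libraries shared between 14 and 59 barcodes. Of 45 clusters 33 could be named by marker genes, with 43138 cells in 12 classes, and 10 classes had enough libraries for a test. The defining markers of each of those 10 classes were detected, with none at 0 in any library except 2 of the 12 dendritic cell markers in IPI-926 1 and 2 in vehicle 3. IPI-926 3 stood apart from the other libraries. Of its macrophages and monocytes 97.5% were in clusters 5, 10, 18 and 38, of its fibroblasts 98.9% in clusters 3, 11 and 39, of its ductal epithelial cells 90.5% in cluster 28, and of its T cells 58.9% in cluster 21, and in each of these clusters it supplied over 90% of the cells. Its fibroblasts had a median of 2294.5 UMIs per cell, against 10108.5 to 25617.5 in the other libraries, but their depth was uneven. In IPI-926 3 cluster 3 held 7683802 UMIs in 3257 cells, and cluster 11 held 84446635 UMIs in 1692 cells. The summed fibroblast levels of IPI-926 3 thus rest mostly on the deep cells of cluster 11. The 193 neutrophils of that library had a median of 986 UMIs. The clusters were made without the GTPases and the other interferon genes, and results are given with and without IPI-926 3.

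Levels are UMIs of a gene per 1000000 UMIs (CPM) of all cells of 1 class in 1 library. They are not scaled by gene length, so each gene is compared across classes and libraries and not with another gene. Over the libraries, mesothelial cells, which line the organ surface, had the highest median level of Gbp2, at 178 CPM (range 156 to 604 over 5 libraries), followed by neutrophils at 26.6 CPM (19.3 to 444 over 6 libraries), while ductal epithelial cells had the lowest at 2.83 CPM (1.03 to 132). Gbp2 is known for its recruitment to the vacuole of the parasite Toxoplasma. T cells had the highest medians of Gbp4 (34.2 CPM, range 18.6 to 59.7) and Gbp7 (138 CPM, range 104 to 169). The median of Gbp3 was 44.2 CPM in T cells (25.9 to 65.9 over 6 libraries) and 41.8 CPM in mesothelial cells (35.9 to 89.5 over 5 libraries), with T cells above mesothelial cells in 1 of the 5 libraries that had both. With every cell of a library given equal weight mesothelial cells came first for Gbp3, at 51.7 CPM against 38.9 CPM in T cells, and the class with the highest median was the same for the other 9 genes. Gbp5, which promotes assembly of the Nlrp3 inflammasome, was highest in neutrophils at a median of 36.4 CPM (9.36 to 106), followed by dendritic cells at 25.3 CPM (15.1 to 49.2).

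Among the 11 classes with at least 3 libraries, the ductal epithelial cells, which hold the tumour cells, had the lowest median of Gbp2, Gbp3 (1.09 CPM), Gbp5 (0.381 CPM), Gbp7 (2.92 CPM) and Igtp (2.12 CPM). The lowest medians were at 0 CPM for Gbp4 in perivascular cells and for Irgm2 and Iigp1 in B cells. For Tgtp1 they were at 0 CPM in 6 classes, and Irgm1 was lowest in plasma cells at 5.34 CPM, next to ductal epithelial cells at 5.80 CPM. Sums of B cells and perivascular cells were shallow, so 1 UMI was 11.9 CPM in B cells of vehicle 3 and 5.88 CPM in perivascular cells of IPI-926 3. In B cells of IPI-926 1, with 2415671 UMIs, Irgm2 was at 9.94 CPM and Iigp1 at 3.31 CPM. Medians of 0 CPM in these 2 classes thus cannot be ranked below the low values of ductal epithelial cells.

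Among the immunity-related GTPases, Iigp1 was highest in endothelial cells, at a median of 66.7 CPM (31.4 to 1347), then in mesothelial cells at 47.2 CPM (42.6 to 815), fibroblasts at 34.6 CPM (5.06 to 869) and perivascular cells at 32.3 CPM (17.2 to 506). In T cells its median was 7.42 CPM, in macrophages and monocytes 3.08 CPM, and in neutrophils 0.679 CPM. The effector gene was thus highest in the stromal and lining classes. Igtp was highest in T cells (46.6 CPM, range 19.8 to 102) and mesothelial cells (41.9 CPM, range 23.5 to 263). Irgm1, Irgm2 and Tgtp1 were highest in mesothelial cells, with medians of 28.3, 31.5 and 4.35 CPM. The immunity-related GTPases made up a median over libraries of 60.4% of the UMIs of the 10 genes in fibroblasts, 57.0% in ductal epithelial cells, 49.8% in perivascular cells and 45.6% in endothelial cells. The share was 34.4% in mesothelial cells, 25.8% in neutrophils, 23.7% in T cells, 16.2% in macrophages and monocytes and 15.5% in dendritic cells.

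Most neighbouring classes in these orders could not be told apart with so few libraries. Of 100 neighbouring pairs, 10 had the same sign in every library and 4 reached an exact two-sided sign-flip permutation p of 0.03125, the smallest that 6 libraries allow, while 5 libraries allow 0.0625. Adjustment over the 100 pairs could be passed only if most pairs reached the smallest p, so the absence of calls (smallest adjusted p 0.521, exact permutation test) does not show that neighbours were alike. Gbp2 in mesothelial cells, for example, exceeded that in neutrophils in 5 of 5 libraries, by a mean of 2.40 on the log2 scale. The 4 pairs were Gbp3 in fibroblasts over ductal epithelial cells, Gbp5 in the same pair of classes, Gbp7 in endothelial over perivascular cells and Irgm2 in perivascular cells over macrophages and monocytes. A median over libraries hides how far IPI-926 3 lay from the others, which the values by library show.

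**Figure D1:**
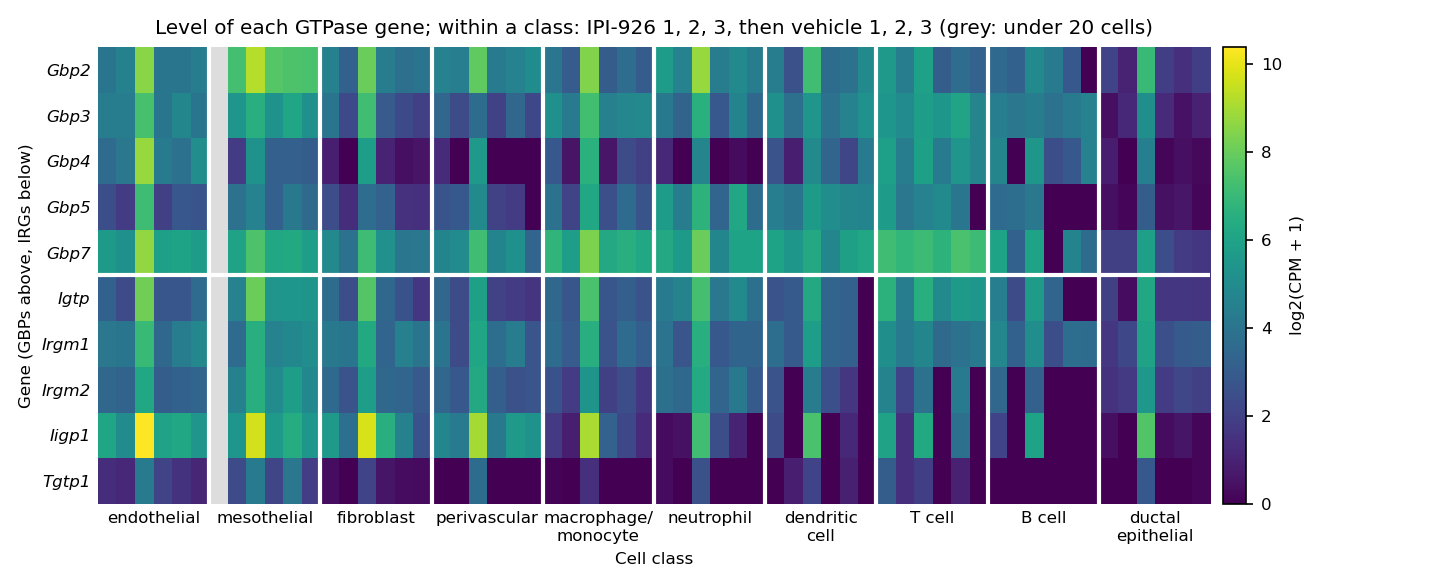
Heat map of the level of each GTPase gene (rows, guanylate-binding proteins above immunity-related GTPases) in each library of each cell class (columns, IPI-926 1, 2 and 3 and then vehicle 1, 2 and 3 within a class), in log2(CPM + 1). The column of IPI-926 3 is the brightest in most rows of all classes other than T and B cells, and grey marks the mesothelial cells of IPI-926 1, of which there were under 20.

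In macrophages and monocytes Gbp2 stood at 15.9, 7.14 and 343 CPM in IPI-926 1, 2 and 3, against 7.48, 12 and 7.08 CPM in vehicle 1, 2 and 3. IPI-926 3 was far above the rest, and IPI-926 2 lay among the vehicle libraries. In neutrophils Gbp2 stood at 50.9, 23.4 and 444 CPM in IPI-926 1, 2 and 3, against 20.3, 29.9 and 19.3 CPM in vehicle 1, 2 and 3. In endothelial cells its level was 15.7, 22.6 and 371 CPM in IPI-926 1, 2 and 3 and 15.2, 15.3 and 19.8 CPM in vehicle 1, 2 and 3, and in fibroblasts 22.7, 8.45 and 261 CPM in IPI-926 1, 2 and 3 and 19.5, 13.3 and 14.9 CPM in vehicle 1, 2 and 3. In ductal epithelial cells, where the other libraries were lowest, Gbp2 stood at 3.25, 1.03 and 132 CPM in IPI-926 1, 2 and 3, against 2.86, 1.61 and 2.79 CPM in vehicle 1, 2 and 3. In each of these classes the 2 groups overlapped, with at least 1 IPI-926 library within or below the vehicle range.

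Gbp7, which has been linked in mouse macrophages to autophagy and oxidase assembly at bacterial vacuoles, stood at 109, 54.5 and 328 CPM in macrophages and monocytes of IPI-926 1, 2 and 3, against 76.0, 89.6 and 72.9 CPM in those of vehicle 1, 2 and 3. Gbp3 in fibroblasts was at 15.3, 3.84 and 148 CPM in IPI-926 1, 2 and 3, against 7.01, 4.08 and 2.89 CPM in vehicle 1, 2 and 3. Gbp4 in endothelial cells was at 11.5, 16.3 and 440 CPM in IPI-926 1, 2 and 3, against 19.2, 13.9 and 32.8 CPM in vehicle 1, 2 and 3. For each of these 3 genes IPI-926 2 was within or below the range of the vehicle libraries. Gbp5 in neutrophils was at 52.5, 20.3 and 106 CPM in IPI-926 1, 2 and 3. In vehicle 1, 2 and 3 it was at 9.36, 72.7 and 11.8 CPM, where vehicle 2 lay above 2 of the IPI-926 libraries.

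Iigp1, the 1 member on chromosome 18, reached its highest levels in IPI-926 3. In endothelial cells Iigp1 stood at 70.0, 31.4 and 1347 CPM in IPI-926 1, 2 and 3, against 63.4, 71.6 and 41.5 CPM in vehicle 1, 2 and 3. In fibroblasts it was at 46.4, 13.1 and 869 CPM in IPI-926 1, 2 and 3, against 91.6, 22.7 and 5.06 CPM in vehicle 1, 2 and 3. In macrophages and monocytes, where it was low elsewhere, it was at 2.38, 0.846 and 545 CPM in IPI-926 1, 2 and 3, against 8.74, 3.77 and 1.39 CPM in vehicle 1, 2 and 3. Outside IPI-926 3 no treated library was above the highest vehicle library in any of these 3 classes. In ductal epithelial cells Iigp1 had 1, 0 and 1714 UMIs in IPI-926 1, 2 and 3, against 10, 10 and 8 UMIs in vehicle 1, 2 and 3.

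Igtp, a regulator on the endoplasmic reticulum, stood at 8.36, 4.39 and 278 CPM in endothelial cells of IPI-926 1, 2 and 3, against 5.90, 5.90 and 11.5 CPM in those of vehicle 1, 2 and 3. Irgm1 in the same cells was at 16.2, 15.7 and 129 CPM in IPI-926 1, 2 and 3, against 10.3, 20.4 and 26.9 CPM in vehicle 1, 2 and 3. Irgm2 was at 9.93, 8.79 and 75.0 CPM in IPI-926 1, 2 and 3, against 7.38, 8.31 and 9.49 CPM in vehicle 1, 2 and 3. Their excess in IPI-926 3 was smaller than that of Igtp in the same cells. Tgtp1 was sparse, with at most 18.1 CPM, in mesothelial cells of IPI-926 3, and 1.57, 1.26 and 17.8 CPM in endothelial cells of IPI-926 1, 2 and 3, against 3.44, 1.88 and 1.19 CPM in those of vehicle 1, 2 and 3.

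Over the 10 genes and 10 classes, IPI-926 3 had the highest level of the 6 libraries in 89 of 100 combinations, IPI-926 1 in 8, vehicle 2 in 2 and vehicle 3 in 1. The 8 of IPI-926 1 include Tgtp1 in B cells, which was at 0 CPM in every library and so has no highest library. IPI-926 3 was highest for all 10 genes in 8 classes, for 6 genes in B cells and for 3 genes in T cells. Summed over the 10 genes, the level in endothelial cells was 207, 159 and 3381 CPM in IPI-926 1, 2 and 3, against 201, 234 and 215 CPM in vehicle 1, 2 and 3. In ductal epithelial cells the sum was 14.8, 11.8 and 628 CPM in IPI-926 1, 2 and 3, against 19.3, 18.3 and 18.6 CPM in vehicle 1, 2 and 3. The other 2 treated libraries were thus within or below the vehicle range in the epithelium. With all cells of a library summed, the 10 genes stood at 94.7, 57.3 and 1711 CPM in IPI-926 1, 2 and 3, against 98.5, 105 and 45.1 CPM in vehicle 1, 2 and 3, a sum in which more cells of a type and more RNA per cell cannot be told apart.

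**Figure D2:**
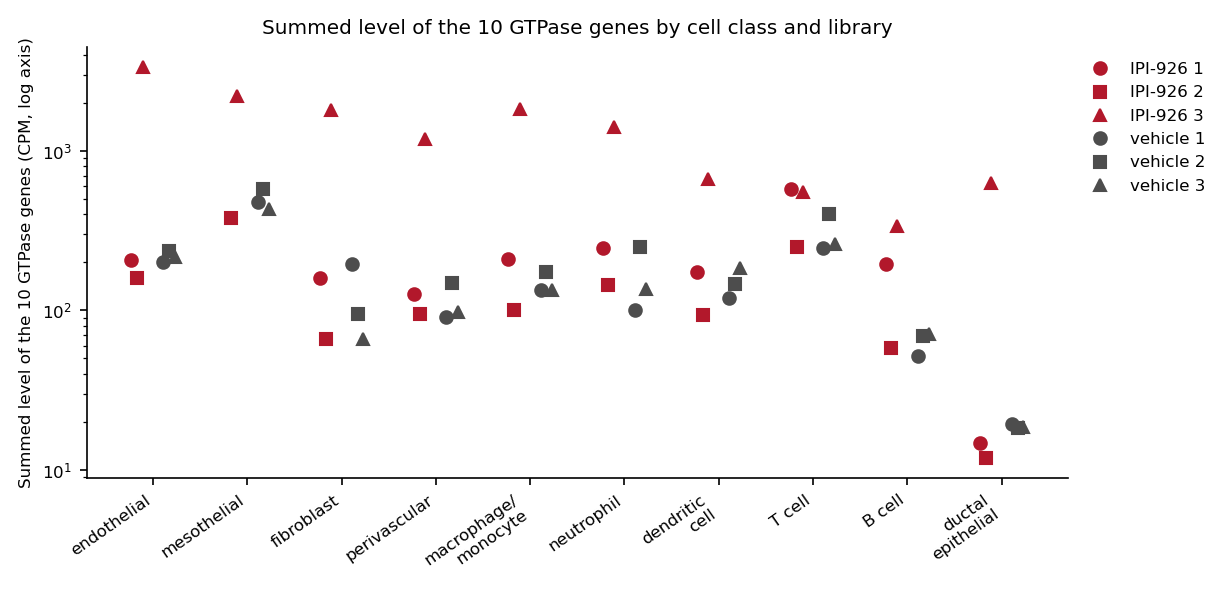
Summed level of the 10 GTPase genes (CPM, log axis) in each cell class, with 1 point per library, IPI-926 in red left of vehicle in grey. IPI-926 3 (red triangle) is the highest point in every class but T cells, where IPI-926 1 stands at 578 CPM and IPI-926 3 at 549 CPM.

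Fold changes of IPI-926 over vehicle were tested with edgeR's quasi-likelihood test on summed counts, with Benjamini-Hochberg adjustment over all genes of a class. After the filter on low counts 9 members were tested in macrophages and monocytes, 7 in neutrophils, 6 in dendritic cells, 9 in T cells, 0 in B cells, 8 in fibroblasts, 3 in perivascular cells, 10 in mesothelial cells, 9 in endothelial cells, 8 in ductal epithelial cells and 10 in all cells summed. A member can pass this filter through IPI-926 3 alone, so counts over the tested members are descriptions. No member passed at an adjusted p of 0.05 in any class (edgeR). Few genes did: the share of all tested genes called was 0.0119% in neutrophils, 0.014% in T cells, 0.0377% in B cells, 0.00931% in mesothelial cells, and 0% in macrophages and monocytes, dendritic cells, fibroblasts, perivascular cells, endothelial cells, ductal epithelial cells and all cells summed.

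Of the 69 values of members over the 10 classes, 12 had an unadjusted p under 0.05 in edgeR, against 3.93% of the 93487 values of all genes, and 68 were positive, against 50.3% of those of all genes. DESeq2 also called 0 of the 69, with 22 at an unadjusted p under 0.05. It gave no p-value at all for 16 of the 69, which thus could not be called. Members with a DESeq2 p-value numbered 6 of 9 in macrophages and monocytes, 3 of 9 in endothelial cells and 1 of 8 in ductal epithelial cells. With limma-voom 0 were called, with 4 at an unadjusted p under 0.05. The corresponding shares of all genes at an unadjusted p under 0.05 were 3.48% with DESeq2 and 6.33% with limma-voom. After adjustment DESeq2 called 0.00767% of all genes in macrophages and monocytes, 0.107% in neutrophils, 0.0675% in dendritic cells, 0.0281% in T cells, 0.0377% in B cells, 0.298% in fibroblasts, 0.133% in perivascular cells, 1.48% in mesothelial cells, 0.136% in endothelial cells, 0.123% in ductal epithelial cells and 0.653% in all cells summed. limma-voom called 0.113% in B cells, 0.168% in mesothelial cells and 0% in the other classes. Without IPI-926 3, 67 values of members passed the filter, which are not a subset of the 69, and of these 0 were called and 5 had an unadjusted p under 0.05 (edgeR), against 3.6% of all genes. Then 36 values were positive and 31 negative, and 48.6% of the values of all genes were positive.

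Single members had large fold changes with large errors. On the log2 scale Iigp1 differed by 7.98 in ductal epithelial cells (SE 2.84, edgeR adjusted p = 0.9997) and by 5.34 in macrophages and monocytes (SE 2.38, adjusted p = 0.9999). In fibroblasts Igtp differed by 3.76 (SE 1.44) and Gbp3 by 3.73 (SE 1.28), both at an edgeR adjusted p of 0.874. Gbp2 differed by 3.82 in macrophages and monocytes (SE 1.45, edgeR adjusted p = 0.9999), and by 2.91 in neutrophils (SE 1.15, adjusted p = 0.853). The smallest adjusted p of a member in any class was 0.387, for Iigp1 in mesothelial cells at a log2 difference of 2.98 (SE 1.05, edgeR's quasi-likelihood test), where IPI-926 1 had too few cells and the treated group was IPI-926 2 and 3.

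The median log2 fold change of the tested members was 2.37 in macrophages and monocytes and 0.24 without IPI-926 3. In endothelial cells it was 2.90 and turned to -0.16 without that library, in ductal epithelial cells 3.27 and -0.88 without it, and in fibroblasts 2.13 and 0.07 without it. Mesothelial cells had a median of 1.08, which was -0.30 without IPI-926 3, and perivascular cells 1.52, which was -0.15. Dendritic cells stood at 0.79 and at -0.10 without it. Neutrophils kept a positive median, of 1.40 with all libraries and 0.46 without IPI-926 3, and T cells had 0.92 and 0.78. In T cells another library moved the median more, to 0.50 without IPI-926 1 (5 of 7 tested members positive) and to 1.25 without IPI-926 2 (9 of 9). The members that pass the filter differ with and without IPI-926 3 in dendritic cells (6 and 4), T cells (9 and 8) and ductal epithelial cells (8 and 9), so those medians cover different members. With all libraries the median of all genes was between -0.03 and 0.03 in each class and in all cells summed. Outside T cells and neutrophils every class median was 0.24 or lower without IPI-926 3.

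**Figure D3:**
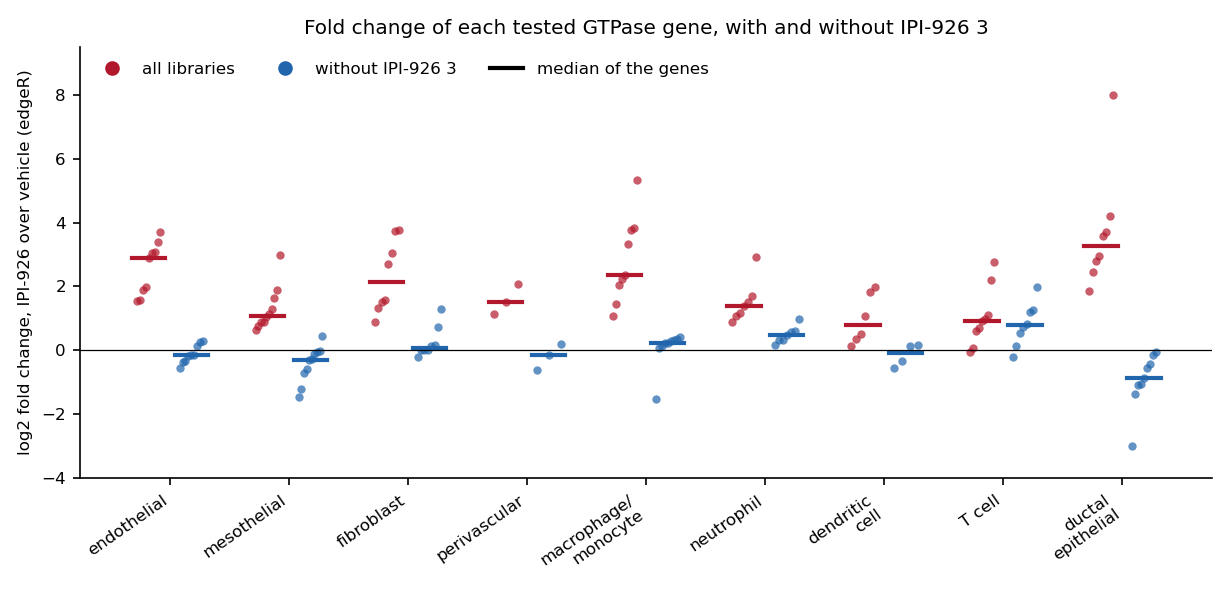
log2 fold change (IPI-926 over vehicle, edgeR) of each tested GTPase gene in each cell class, with all libraries in red and without IPI-926 3 in blue, and a bar at the median of the genes. The red points lie above 0 in all classes apart from 1 gene in T cells, while the blue medians lie between -0.88 in ductal epithelial cells and 0.78 in T cells.

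The excess in IPI-926 3 was also present in clusters that several libraries share. In endothelial cluster 14, led by Plvap, Emcn and Cdh5, the 10 genes summed to 3471 CPM in 289 cells of IPI-926 3, 14.2 times the highest of the other 5 libraries, which ranged from 145 to 244 CPM. Endothelial cluster 33, led by Mmrn1, Cldn5 and the lymphatic marker Prox1, summed to 1784 CPM in IPI-926 3, against 156 to 222 CPM in the others. Fibroblast cluster 12 held 53 cells of IPI-926 3 at 2485 CPM, 12.7 times the highest of the others, which ranged from 66.0 to 195 CPM. The fibroblasts of IPI-926 3 outside its own clusters thus lay within the range of those inside them, which stood at 1605, 1817 and 3239 CPM in clusters 3, 11 and 39.

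Macrophage cluster 15 had 103 cells of IPI-926 3 at 2930 CPM, against 77.1 to 187 CPM in the other 5 libraries. In macrophage cluster 5 the ratio was 2.01, since 24 cells of IPI-926 1 stood at 762 CPM there, against 1531 CPM in IPI-926 3. The ratio of IPI-926 3 to the highest other library was 4.48 in neutrophil cluster 4, 3.61 in dendritic cell cluster 25, 3.82 in mesothelial cluster 26, 8.05 in perivascular cluster 32 and 11.7 in ductal cluster 6, where 37 cells of IPI-926 3 stood at 186 CPM. It was smallest in lymphocytes, at 1.65 in T cell cluster 7 and 1.73 in B cell cluster 20.

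**Figure D4:**
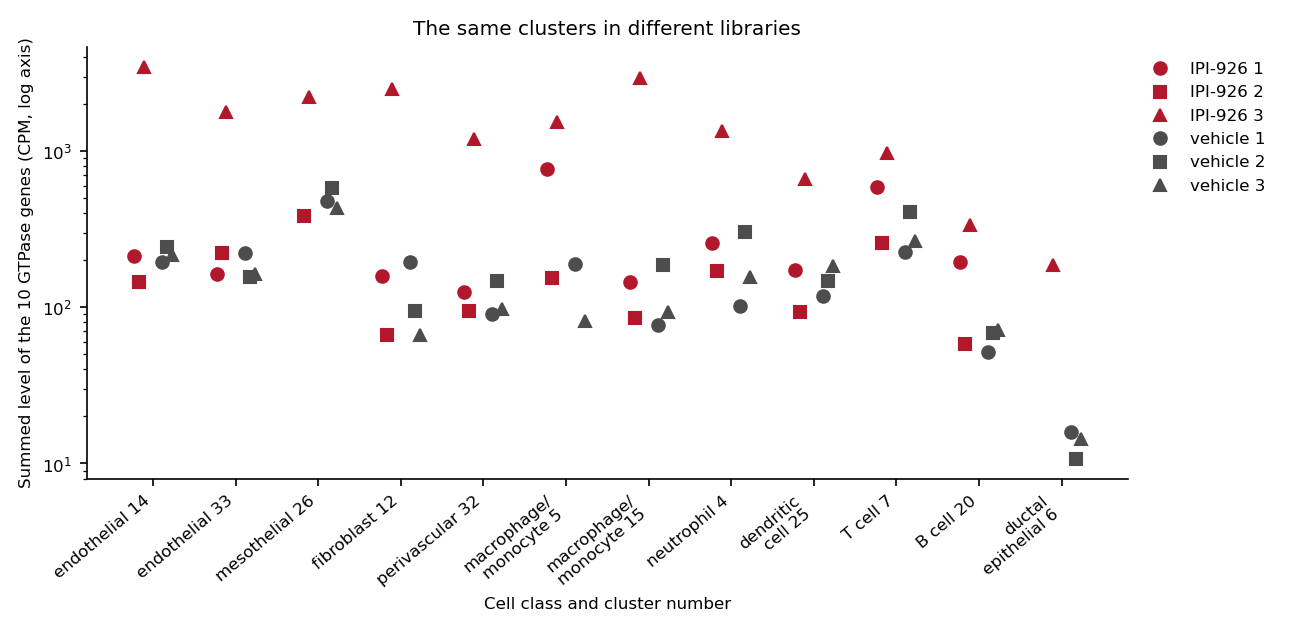
Summed level of the 10 GTPase genes (CPM, log axis) in clusters that hold at least 20 cells of several libraries, with 1 point per library, IPI-926 in red left of vehicle in grey. IPI-926 3 (red triangle) is above every other library in each cluster, by 14.2 times in endothelial cluster 14 and by 1.65 times in T cell cluster 7.

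The share of cells with at least 1 UMI of any of the 10 genes was also taken with each cell thinned to 1000 UMIs and shallower cells left out. In endothelial cells the thinned share was 86.2% in IPI-926 3, against 10.8% to 19.2% in the other 5 libraries (95.7% against 43.2% to 66.5% as sequenced). The order of the other libraries changed, with vehicle 3 lowest as sequenced (43.2%) and highest of them after thinning (19.2%). In mesothelial cells IPI-926 3 was at 99.4% as sequenced, below vehicle 2 at 100%. After thinning it was at 84.0%, against 26.5% to 43.3% in the others. Ductal epithelial cells, the class with the lowest levels, had 45.3% in IPI-926 3 and 0% to 2.88% in the others after thinning (85.3% and 22.1% to 40.7% as sequenced). In macrophages and monocytes the thinned share was 70.3%, against 9.81% to 16.9%, and in fibroblasts 72.3%, against 6.88% to 11%. In T cells it was 42.0% in IPI-926 3 and reached 37.8% in the others. Endothelial cells with 3 or more of the 10 genes made up 44.3% of the thinned cells in IPI-926 3 and at most 1.35% in the others.

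Fibroblast markers moved with the result in several other classes of IPI-926 3. The 14 fibroblast markers summed to 79.7, 56.4 and 902 CPM in the macrophages and monocytes of IPI-926 1, 2 and 3, against 51.2 to 213 CPM in vehicle. Of the 14 markers none was at 0 in IPI-926 3 and 1 was at 0 in vehicle 3. In neutrophils they summed to 257, 227 and 2370 CPM in IPI-926 1, 2 and 3, against 160 to 719 CPM in vehicle, with 1, 2 and 2 of the 14 at 0 in IPI-926 1, 2 and 3 and up to 4 in vehicle. In ductal epithelial cells the sums were 248, 40.7 and 877 CPM in IPI-926 1, 2 and 3, against 45.7 to 135 CPM in vehicle, with none of the 14 at 0. In endothelial cells the sums were 115, 303 and 599 CPM in IPI-926 1, 2 and 3, against 139 to 376 CPM in vehicle, with at most 2 of the 14 at 0. In dendritic cells they summed to 596 CPM in IPI-926 3, against 24.7 to 223 CPM in vehicle, and in B cells to 1013 CPM, against 232 to 450 CPM. In the fibroblasts of IPI-926 3 themselves these markers summed to 17932 CPM.

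Some markers of immune cells moved with the result too, and others did not. The 15 macrophage and monocyte markers summed to 133 to 1080 CPM in ductal epithelial cells of IPI-926, with IPI-926 3 the highest, against 127 to 312 CPM in those of vehicle. In endothelial cells they summed to 226 to 655 CPM in IPI-926, again highest in IPI-926 3, against 256 to 456 CPM in vehicle. The 12 T cell markers summed to 1.5 to 48.5 CPM in macrophages and monocytes of IPI-926, highest in IPI-926 3, against 2.04 to 8.57 CPM in those of vehicle. Neutrophil markers, 12 in number, went the other way in fibroblasts, at 27.0 CPM in IPI-926 3 against 166 to 269 CPM in vehicle. They did so in endothelial cells too, at 24.0 CPM in IPI-926 3 against 68.4 to 157 CPM in vehicle. The part of RNA from other cells in the levels of the GTPases was not tested.

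Within IPI-926 3 the ratio of Iigp1 to Gbp2 UMIs differed between classes. It was 3.33 in fibroblasts (95% interval 3.28 to 3.37, counting error only), 3.63 in endothelial cells (3.37 to 3.92), 1.59 in macrophages and monocytes (1.55 to 1.63), 1.42 in ductal epithelial cells (1.32 to 1.53) and 0.330 in neutrophils (0.209 to 0.506). The neutrophils thus carried more Gbp2 for their Iigp1 than any other class of that library. The 11 dissociation and stress genes, summed, were lower in fibroblasts of IPI-926 3, at 1573 CPM against 4024 to 7064 CPM in the other libraries, and higher in its neutrophils, at 18376 CPM against 7559 to 10232 CPM in the others. The part of these differences in the GTPase levels was not tested.

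In T cells the difference in Gbp2 and Irgm1 did not rest on IPI-926 3. Gbp2 was at 48.4, 19.8 and 60.0 CPM in T cells of IPI-926 1, 2 and 3 (92, 12 and 368 UMIs), against 7.46, 12.2 and 8.64 CPM in those of vehicle 1, 2 and 3 (2, 13 and 1 UMIs). Every treated library was above every vehicle library. The gap between the groups is that of IPI-926 2 and vehicle 2, whose values rest on 12 and 13 UMIs, and cannot be resolved at this depth. After scaling between libraries Gbp2 averaged 46.6 ± 22.5 CPM in IPI-926 and 8.73 ± 2.57 CPM in vehicle (SD, n = 3 each). On the log2 scale this is a difference of 2.20 with an SE of 0.55, at an unadjusted p of 0.00107 and an adjusted p of 0.9996 by edgeR's quasi-likelihood test. It did not pass the adjusted threshold in any setting, where its log2 fold change ranged from 1.94 to 2.58 and its smallest adjusted p was 0.0554 (edgeR without the filter on low counts). Without IPI-926 3 Gbp2 still differed by 1.97 on the log2 scale (SE 0.58), at an edgeR adjusted p of 0.9997.

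Irgm1 was the other member without overlap in T cells, at 34.7, 18.1 and 26.4 CPM in IPI-926 1, 2 and 3 (66, 11 and 162 UMIs), against 11.2, 14.1 and 17.3 CPM in vehicle 1, 2 and 3 (3, 15 and 2 UMIs). The gap between the groups is that of IPI-926 2 and vehicle 3, whose values rest on 11 and 2 UMIs, and cannot be resolved at this depth. Its scaled level averaged 29.0 ± 10.7 CPM in IPI-926 and 13.0 ± 2.21 CPM in vehicle (SD, n = 3 each), and the log2 difference of 1.10 had an SE of 0.51, with an edgeR adjusted p of 0.9996. Without IPI-926 3 the log2 difference of Irgm1 was 1.21 (SE 0.55). Those 2 of 9 tested members compare with 5.17% of the genes tested in T cells that had all IPI-926 libraries above all vehicle libraries. In endothelial cells 1 of 9 tested members, Irgm2, had scaled levels without overlap, against 4.46% of all genes. In the other classes with tested members it was 0 members, against 3.1% of all genes in macrophages and monocytes, 4.31% in neutrophils, 4.98% in dendritic cells, 5.15% in fibroblasts, 3.24% in perivascular cells, 14.3% in mesothelial cells, 2.66% in ductal epithelial cells and 3.29% in all cells summed.

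The other members overlapped between the groups in T cells. Igtp stood at 102, 19.8 and 90.4 CPM in IPI-926 1, 2 and 3, against 29.8, 49.9 and 43.2 CPM in vehicle 1, 2 and 3, with IPI-926 2 the lowest of all. Iigp1 was at 62.6, 1.65 and 78.3 CPM in IPI-926 1, 2 and 3 (119, 1 and 480 UMIs), against 0, 13.2 and 0 CPM in vehicle 1, 2 and 3 (0, 14 and 0 UMIs). Gbp7 was at 145, 119 and 138 CPM in IPI-926 1, 2 and 3, against 104, 169 and 138 CPM in vehicle 1, 2 and 3, a log2 fold change of 0.08 (SE 0.35). Levels of Gbp7 in T cells were thus much alike in all 6 libraries.

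IPI-926 1 and 3 were the libraries with high Igtp and Iigp1 in T cells. In T cell cluster 7, led by Icos and Il7r and shared by all libraries, Gbp2 was at 50.6, 20.6 and 102 CPM in IPI-926 1, 2 and 3, against 9.18, 13.1 and 8.83 CPM in vehicle 1, 2 and 3. In cluster 21, which is led by Nkg7, Ccl5 and Cd8a and has 950 cells of IPI-926 3, Gbp2 was at 48.1 CPM. The 10 natural killer cell markers, some of which cytotoxic T cells also express, summed to 572 CPM in the T cells of IPI-926 3, against 67.1 to 216 CPM in vehicle, and the 14 fibroblast markers to 842 CPM, against 51.9 to 313 CPM in vehicle, with 0 of the 14 at 0 in IPI-926 3 and 12 of the 14 at 0 in vehicle 3. Their part in the result was not tested. The vehicle values rest on few cells, with 88, 288 and 54 T cells in vehicle 1, 2 and 3.

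**Figure D5:**
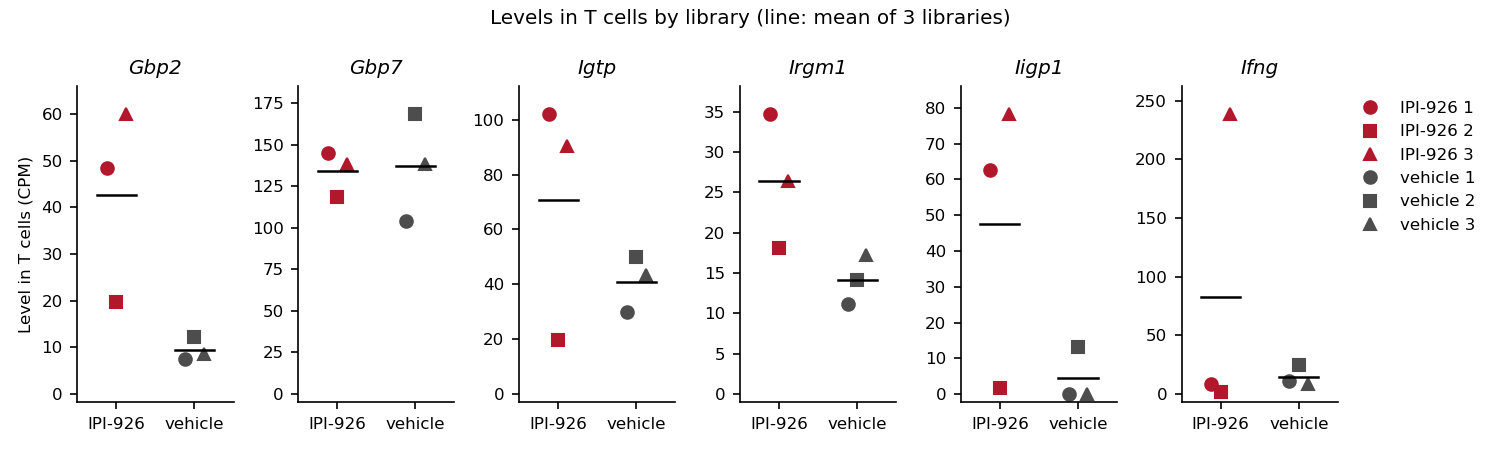
Level in T cells (CPM) of 5 GTPase genes and of Ifng, with 1 point per library, IPI-926 left of vehicle and a line at the mean of the 3 libraries. All 3 IPI-926 points of Gbp2 and Irgm1 lie above the vehicle points, while Ifng is high in IPI-926 3 alone at 239 CPM.

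The difference of response between classes was tested within libraries for 11 pairs of classes with limma. Of 71 values of members 4 had an unadjusted p under 0.05 and 0 passed adjustment, as in all 11 pairs 0% of all tested genes did. With edgeR and the library as a block 6 had an unadjusted p under 0.05 and 0 passed. The smallest unadjusted p was for Irgm1, whose response was 1.51 lower on the log2 scale in mesothelial cells than in macrophages and monocytes (log2 difference -1.51, SE 0.41, limma unadjusted p = 0.00877, adjusted p = 0.571, 5 libraries). Gbp2 differed by -1.35 between dendritic cells and macrophages and monocytes (SE 0.55, limma adjusted p = 0.962). The responses were not shown to differ between any of these classes, nor to be alike, since this test recovered few of the differences placed in simulated data.

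Of the ligands, Ifng was found mainly in T cells, at 8.42, 1.65 and 239 CPM in IPI-926 1, 2 and 3 (16, 1 and 1463 UMIs), against 11.2, 24.5 and 8.64 CPM in vehicle 1, 2 and 3 (3, 26 and 1 UMIs). IPI-926 3 was the one high library, and IPI-926 1, whose T cells also had high Igtp and Iigp1, was just below the lowest vehicle library. Ifng did not pass the filter on low counts in T cells and was not tested there. T cells made up 7.86%, 2.38% and 11.4% of the kept cells in IPI-926 1, 2 and 3, and 1.33%, 3.36% and 0.781% in vehicle 1, 2 and 3. Ifnb1, a type I interferon, had 7 UMIs in all libraries together, all in macrophages and monocytes.

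The interferon gamma receptor did not follow the GTPases. Ifngr1 stood at 493, 740 and 255 CPM in T cells of IPI-926 1, 2 and 3, against 373, 803 and 916 CPM in those of vehicle 1, 2 and 3, so that IPI-926 3 was the lowest library. Over the classes the 6 receptor genes had medians of the log2 fold change between -0.14 in T cells and 0.47 in neutrophils, with 0 called. Downstream of the receptor, Irf1, an early interferon gamma target, was at 232, 145 and 600 CPM in neutrophils of IPI-926 1, 2 and 3, against 85.8, 264 and 126 CPM in those of vehicle 1, 2 and 3. Irf1 was highest in IPI-926 3, with IPI-926 2 within the vehicle range. The kinase Jak1 in macrophages and monocytes averaged 163 ± 23.7 CPM in IPI-926 and 159 ± 18.3 CPM in vehicle (scaled CPM, SD, n = 3 each).

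Of the brakes on the pathway, Socs1 in fibroblasts stood at 16.0, 23.0 and 50.1 CPM in IPI-926 1, 2 and 3, against 31.5, 21.5 and 32.0 CPM in vehicle 1, 2 and 3. The 7 genes of that list had 0 called in any class, with medians of the log2 fold change from -0.15 in endothelial cells to 0.25 in perivascular cells. Among the 21 interferon gamma response genes 0 were called in any class. Their medians were 1.66 in ductal epithelial cells (17 of 18 tested positive), 1.16 in endothelial cells (14 of 15) and 0.89 in macrophages and monocytes (18 of 20), and without IPI-926 3 they were -0.32, 0.01 and 0.10. Cxcl9, a chemokine that draws T cells, was at 4.18, 0.628 and 1112 CPM in endothelial cells of IPI-926 1, 2 and 3, against 0, 13.9 and 1.58 CPM in those of vehicle 1, 2 and 3. In fibroblasts Cxcl9 was at 14.4, 0.768 and 59.6 CPM in IPI-926 1, 2 and 3, against 165, 28.1 and 6.02 CPM in vehicle 1, 2 and 3, where vehicle 1 was the highest library.

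Other genes of the 2 families had positive fold changes in macrophages and monocytes that were smaller without IPI-926 3. Of the 6 other guanylate-binding protein genes listed 5 are in the files, and of those tested all 4 were positive in macrophages and monocytes with a median log2 fold change of 2.41, which was 0.05 without IPI-926 3. Gbp6 stood at 2.09, 4.39 and 164 CPM in endothelial cells of IPI-926 1, 2 and 3, against 2.95, 2.95 and 1.58 CPM in those of vehicle 1, 2 and 3. Of 10 other immunity-related and large GTPase genes listed 7 are in the files, and the 6 tested in macrophages and monocytes were all positive at a median of 1.92, which was 0.21 without IPI-926 3. Ifi47, an immunity-related GTPase, was at 20.8, 9.73 and 217 CPM in these cells of IPI-926 1, 2 and 3, against 9.64, 14.3 and 10.5 CPM in those of vehicle 1, 2 and 3. IPI-926 3 was far above the other libraries for Gbp6 in endothelial cells and for Ifi47 in macrophages and monocytes. In T cells Gbp9 stood at 28.4, 14.8 and 27.2 CPM in IPI-926 1, 2 and 3, against 14.9, 15.1 and 8.64 CPM in vehicle 1, 2 and 3, with IPI-926 1 the highest. Tgtp2 was at 8.94, 1.65 and 7.02 CPM in T cells of IPI-926 1, 2 and 3, against 14.9, 2.83 and 0 CPM in those of vehicle 1, 2 and 3, and had 0 UMIs in neutrophils of IPI-926 3. None of these genes was called in any class (edgeR).

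Type I interferon response genes, a list of 20, had a positive median fold change in neutrophils with and without IPI-926 3, where the median of all genes was -0.03. In neutrophils 16 of 17 tested were positive at a median log2 fold change of 1.81, and without IPI-926 3 it was 18 of 19 at 1.31, with 0 called in both (edgeR). Isg15, a ubiquitin-like protein, stood at 200, 197 and 857 CPM in neutrophils of IPI-926 1, 2 and 3, against 78.0, 61.4 and 70.6 CPM in those of vehicle 1, 2 and 3. All 3 treated libraries were above all vehicle libraries for Isg15. In the same neutrophils without IPI-926 3, Gbp2 stood above vehicle in IPI-926 1 only. In fibroblasts the type I list had a median of 1.58 (18 of 19 positive) and 0.73 without IPI-926 3 (15 of 16), and in macrophages and monocytes 2.27 (20 of 20) and 0.71 (17 of 19). In endothelial cells it was 1.35 (15 of 15 positive) and -0.14 without IPI-926 3 (5 of 14), and 0 genes of the list were called in any class.

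Among the genes whose pattern was most like the mean of the 10 members, after removing class means over 64 sums of 12 classes, were Ifi47 (r = 0.922), Gbp6 (0.908), Il18bp (0.893), F830016B08Rik (0.880), Crabp1 (0.872), Gm4841 (0.853), Cxcl9 (0.853), Ms4a6b (0.848) and Tap1 (0.846). Over 12875 genes the median r was 0.0180 and the 99th percentile 0.648. All sums of 1 library share its depth and its cells. Without the sums of IPI-926 3 the r of Ifi47 was 0.642 and that of Gbp6 0.594, while that of Crabp1, which leads fibroblast clusters 3 and 11, was 0.0884. Among the members themselves the 45 pairs had a median r of 0.739 (0.614 to 0.875), and of 0.320 (-0.0184 to 0.709) without the sums of IPI-926 3. The class means that were removed came from all libraries in each case. The values of r without the sums of IPI-926 3 are thus still shaped by that library. The likeness is a description over libraries and classes that are not independent.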

How the data were processed

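Single-cell RNA was measured in 3 IPI-926 and 3 vehicle tumours. As deposited, the values are raw UMI counts for each barcode and gene, not normalized. The file headers name cellranger 6.1.2, the notes of the submitters on processing name Cell Ranger 2.1.1 and the build mm10, and the annotation is not given in the sources used here. Gene positions come from GENCODE vM21, which holds 32158 of the 32285 gene IDs.

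Barcodes passed (54911) if they had 500 or more UMIs, 300 or more genes and no more than 20% of UMIs from mitochondrial genes. Doublets were scored against simulated doublets and the top 0.8% per 1000 barcodes removed (5114 cells). Leiden clustering (resolution 1, 30 components, 2000 variable genes) left out the GTPases, the interferon lists and sex-linked genes. Clusters took a class only with at least 3 detected markers of it.

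Counts were summed per library and class, with at least 20 cells, and tested with edgeR 4.0.16 (R 4.3.3, TMM scaling, filterByExpr, robust quasi-likelihood test, Benjamini-Hochberg adjustment over all genes of a class, threshold 0.05). DESeq2 1.42.0 and limma-voom (limma 3.58.1) were alternatives, as were another scaling, no filter on low counts, stricter cell filters, doublets kept, clusters of 1 library left out and each library left out. limma compared responses between classes within libraries. The edgeR test gives no SE. Each SE printed with it is the absolute log2 fold change over the square root of the test's F statistic. The fits were tested on simulated data. Intervals and floors cover counting error only.

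The members and the gene lists were chosen with earlier results of these data known. Besides the members, the text names Ifng and Ifnb1, the 4 genes of a list with the highest mean level in a class and genes among the 10 most like the members in pattern. One gene that this rule names is not reported here. The low-count filter can be passed through 1 library alone, which favours genes high in IPI-926 3.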

Additional observations from a re-analysis of the deposited data

How the results depend on the processing

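Of the libraries left out in turn, IPI-926 replicate 3 moved the median of the members' log2 fold changes most in all cells summed and in each class with tested members other than T cells. Over the settings that leave out 1 library the median ranged from 0.24 to 2.85 in macrophages and monocytes, from 0.46 to 1.88 in neutrophils, from -0.10 to 1.43 in dendritic cells, from 0.50 to 1.25 in T cells, from 0.071 to 2.62 in fibroblasts, from -0.15 to 1.87 in perivascular cells, from -0.30 to 1.79 in mesothelial cells, from -0.16 to 3.45 in endothelial cells, from -0.88 to 4.08 in ductal epithelial cells and from -0.13 to 2.98 in all cells summed. The lowest value of each range is the one without IPI-926 replicate 3, except in T cells, where it is the one without IPI-926 replicate 1. Other settings moved medians by over 1.5 times. With limma-voom they were 1.47 in macrophages and monocytes, 0.62 in neutrophils, 0.37 in perivascular cells, 1.39 in endothelial cells, 0.47 in ductal epithelial cells and 1.48 in all cells summed. Without clusters of 1 library they were 1.12 in macrophages and monocytes and 1.88 in ductal epithelial cells. The stricter cell filter gave 0.10 in perivascular cells. With at least 50 cells the median was 1.43 in dendritic cells, and with no filter on low counts 1.56. With equal cells per library fewer members passed the filter, and the values were -0.064 in dendritic cells and 0.43 in T cells (1 member each) and 1.72 in ductal epithelial cells (2 members). The cause was not tested.

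Over those settings from 0 to 3 members were called in mesothelial cells. The 3 were Gbp4, Igtp and Iigp1 without IPI-926 replicate 2, where IPI-926 3 stood alone against 3 vehicle libraries and is assumed to vary like them, and where 0.42% of all genes were called (edgeR). In no other class and setting was a member called. Of 1207 values of members in 16 settings 45 had another sign than in the values reported, 34 of them without IPI-926 replicate 3. The largest number of genes called in any class was 1 in the values reported, 159 with DESeq2, 184 with no filter on low counts, 18 with limma-voom, 105 without vehicle replicate 2, 51 without IPI-926 replicate 2, 8 without IPI-926 replicate 1, 6 with doublets kept and 5 without vehicle replicate 3. In the values reported Tgtp1 passed the filter on low counts only in mesothelial cells and in all cells summed, and B cells were too shallow for any member. No paired analysis was possible because the labels give each library its own code and no number shared between the groups.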

Other observations

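MHC class II genes, which present antigen to CD4+ T cells and are mostly absent from resting epithelium, had positive fold changes in endothelial and ductal epithelial cells that rested on IPI-926 3. In endothelial cells the 5 tested of 6 listed were all positive at a median log2 fold change of 3.40, which was -0.14 without IPI-926 3 (2 of 5 positive). In ductal epithelial cells all 6 were positive at 2.91, which was -0.10 without IPI-926 3 (1 of 6 positive). In dendritic cells, which express them constantly, the median was 0.64, and 0.53 without IPI-926 3, with 6 of 6 positive in both. The 15 macrophage and monocyte markers, a cell type that also expresses these genes, summed to 133 to 1080 CPM in ductal epithelial cells of IPI-926, highest in IPI-926 3, against 127 to 312 CPM in those of vehicle. In endothelial cells they summed to 226 to 655 CPM in IPI-926, highest in IPI-926 3, against 256 to 456 CPM in vehicle, and their part in the result was not tested. Cd74, the invariant chain, averaged 1078 ± 1764 CPM in endothelial cells of IPI-926 and 65.8 ± 69.9 CPM in those of vehicle (scaled CPM, SD, n = 3 each). No gene of the list was called in any class (edgeR), and the SD of Cd74 in IPI-926 endothelial cells exceeded the mean.

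The genes that act with the GTPases at vacuoles and in the inflammasome, a list of 18, did not share the pattern of the members. Their median log2 fold change was 0.14 in macrophages and monocytes (13 of 18 positive) and 0.10 without IPI-926 3 (13 of 18). In endothelial cells it was 0.14 (13 of 18) and 0.16 without IPI-926 3 (11 of 18), and in neutrophils 0.42 (14 of 17) and 0.32 without that library (13 of 18). None was called in any class (edgeR).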
